A study of Mus musculus with 28 samples.

Results

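The comparison described here set spermatids against the cells that precede them, secondary spermatocytes, within the same mouse. It used 8 of the 28 RNA-seq libraries of the series, taken from the 4 of 13 mice with both sorted fractions among the libraries analysed here. Mice 178 and 648 were wildtype and mice 286 and 544 were *Csmd1* knockout. The GEO labels give the strain of every mouse as C57BL/6, whereas the study's methods describe the knockout colony as a mixed 129SvEvBrd and C57BL/6 background. The knockout allele is constitutive: a lacZ and neomycin cassette replaced exon 1 and part of intron 1 in all cells, so germ cells and somatic cells of mice 286 and 544 carry it alike. Dissociated cells of 1 testis per mouse were stained with Hoechst, a DNA dye, and sorted by fluorescence, and the methods give the age of sorted males as 40 ± 1 days without naming the mice. Transcript values of each gene were summed, and the spermatid value minus the secondary spermatocyte value was taken in each mouse on the log2(RPKM + 0.1) scale, where RPKM is the number of reads scaled to the length of the transcript and to the mapped reads of the library. Both genotypes entered 1 analysis, and the 4 differences per gene are the measure throughout.

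Secondary spermatocytes are the short-lived product of the first meiotic division, and the second division turns them into haploid round spermatids. Spermatids then build the acrosome, an enzyme-filled cap on the nucleus, and the flagellum, and they exchange histones first for transition proteins and then for protamines, which pack the DNA of the sperm head. Transcription stops as the nucleus condenses, so many messenger RNAs are made early in this sequence, stored in ribonucleoprotein particles and translated days later. The sister cells of a clone stay joined by cytoplasmic bridges, through which transcripts pass.

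The 8 libraries held an estimated 43409099 to 61689039 mapped reads, at which 1 read in a transcript of 1 kb is worth 0.016 to 0.023 RPKM. The gene sums are not comparable between genes, because a read was counted in every transcript it overlapped, and reads summed over all transcripts came to 137.3 to 195.6% of the mapped reads. Statements below therefore compare 1 gene between libraries, except where genes are chosen by their summed level. The sum of *Csmd1* covers exons outside the deleted part and does not check the genotype.

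The 3 genes taken to mark spermatids did not behave alike. *Prm1*, which encodes protamine 1, went from 124 to 2579 in mouse 178, 0.691 to 0.579 in mouse 648, 1.99 to 2.14 in mouse 286 and 261 to 929.9 in mouse 544, all in RPKM. It was abundant in the spermatids of mice 178 and 544 and close to absent in both fractions of mice 648 and 286, where the difference was near 0. The mean difference was 1.52 ± 2.11 (SD, n = 4), which did not pass the threshold (limma adjusted p = 0.113). It passed in limma after median centring (1.96, adjusted p = 0.0494) and in wildtype mice alone (2.08, adjusted p = 0.0295). The wildtype fit rests on mouse 178, where *Prm1* rose, and mouse 648, where it was slightly lower. In that fit limma took the variance mostly from other genes, so its p does not measure the spread of *Prm1* between these mice. *Tnp1*, the gene of transition protein 1, went from 211 to 1659 in mouse 178, 3.84 to 11.5 in mouse 648, 3.4 to 5.68 in mouse 286 and 512 to 2378 in mouse 544. Its level was again far lower in the spermatids of mice 648 and 286 than in those of mice 178 and 544, yet it was higher in spermatids in each of the 4 mice, and it passed at 1.87 ± 0.96 (SD, n = 4) (limma adjusted p = 0.0122). The call was lost in limma without mouse 178 (1.5, adjusted p = 0.0597) and in knockout mice alone (1.47, adjusted p = 0.189). It was also lost in limma with the 10 libraries of both stages and mouse as a random block (1.82, adjusted p = 0.291). *Acrv1*, an acrosomal matrix protein gene that is switched on early in round spermatids, went from 29.6 to 173 in mouse 178, 8.19 to 47.9 in mouse 648, 21.8 to 86.2 in mouse 286 and 69.8 to 154 in mouse 544. It rose by 2.05 ± 0.66 (SD, n = 4), a 4.14-fold geometric mean (limma adjusted p = 0.00886), and no mouse lacked it. Its call was kept with each mouse left out and lost in knockout mice alone (1.56, limma adjusted p = 0.155).

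The whole testes of these mice differed in the same way. In them, *Prm1* stood at 603 RPKM in mouse 178, 0.681 in mouse 648 and 1.16 in mouse 286, and a whole testis of mouse 544 was not analysed here. *Prm1* was also 1299 RPKM in the spermatid library of wildtype mouse 351 and 259 RPKM in the secondary spermatocyte library of knockout mouse 550, the 2 libraries of these stages left out for want of a partner. Each genotype holds 1 mouse with a high level and 1 with a low level, so the label spermatid covers fractions that differed in their late transcripts, whatever the genotype. Summed RPKM of the spermatid chromatin genes listed below went from 2066 to 8964 in mouse 178 and 3685 to 9925 in mouse 544. It went from 1182 to 1547 in mouse 648 and 647.8 to 1159 in mouse 286. Secondary spermatocytes of mice 178 and 544 thus exceeded spermatids of mice 648 and 286. Meiotic prophase genes went from 4216 to 4115 in mouse 648 and 2035 to 3167 in mouse 286. Mice 178 and 544 went from 2306 to 1749 and 2712 to 1727. The labels give no age per mouse, and the part of age, of sorting or of the animal was not tested. In such bulk samples, fewer cells of a type and less RNA per cell cannot be told apart.

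**Figure D1:**
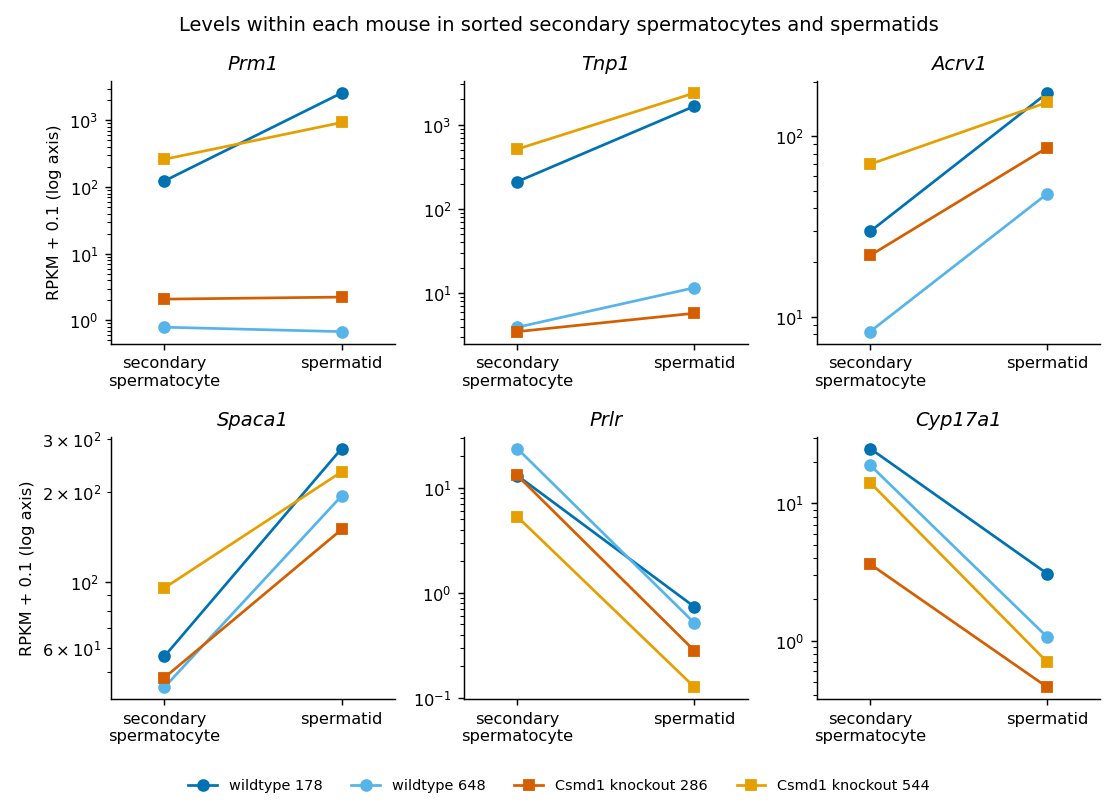
RPKM + 0.1 on a log axis in the secondary spermatocyte and spermatid library of each mouse, joined by a line; circles are wildtype and squares Csmd1 knockout mice. Acrv1 and Spaca1 go up and Prlr and Cyp17a1 go down in all 4 mice, whereas Prm1 stays between 0.579 and 2.14 RPKM in mice 648 and 286.

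The 150 bases upstream of the RefSeq transcription start of these genes and of *Spaca1*, an acrosomal membrane protein gene described below, are shown because the results turn on these genes, whose levels differed between mice to unlike degrees (build GRCm38.p6, 5′ to 3′ on the strand of the gene). Capitals mark the motifs searched on both strands, which are TGACGTCA, the full cyclic AMP response element, TGACG, a shorter form that every TGACGTCA also holds, and TATAAA.
Prm1 (chr16:10796824-10796973, minus strand): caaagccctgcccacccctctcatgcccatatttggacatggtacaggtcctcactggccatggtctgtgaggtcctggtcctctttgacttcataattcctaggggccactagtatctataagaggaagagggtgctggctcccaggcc
Tnp1 (chr1:73015900-73016049, minus strand): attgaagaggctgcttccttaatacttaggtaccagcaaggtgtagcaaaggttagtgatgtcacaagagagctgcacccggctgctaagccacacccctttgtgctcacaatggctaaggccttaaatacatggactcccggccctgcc
Acrv1 (chr9:36693070-36693219, plus strand): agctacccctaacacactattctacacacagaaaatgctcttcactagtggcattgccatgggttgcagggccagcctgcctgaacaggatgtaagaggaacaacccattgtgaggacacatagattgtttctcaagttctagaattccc
Spaca1 (chr4:34050066-34050215, minus strand): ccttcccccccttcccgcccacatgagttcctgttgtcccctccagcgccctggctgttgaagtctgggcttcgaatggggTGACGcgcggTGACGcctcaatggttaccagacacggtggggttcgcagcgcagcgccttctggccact
TGACG occurs 2 times upstream of *Spaca1*, and none of the 3 motifs occurs in the windows shown of the other genes. Only exact matches were searched, so forms of the element with a changed base were not looked for. TGACG was found in the promoter, 250 bases before to 50 after the start, of 27.5% of the genes higher in spermatids that had a RefSeq promoter (933 of 1306 symbols), 31.5% of those lower and 30.9% of all genes tested. The full element was found in 4.1, 2.8 and 3.1% and TATAAA in 12.3, 10.5 and 10.3%. Among the acrosome genes listed below, 11 of 23 promoters held TGACG, against 3 of 12 among the spermatid chromatin genes and 1 of 6 among the Leydig cell genes. These are letter matches, and whether a factor binds there was not measured.

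Of 21789 genes with a mean of at least 0.1 RPKM, 1308 were higher in spermatids (6.00% of genes tested) and 2890 lower (13.3%) at a limma adjusted p of 0.05 with the mouse as a block. All 4 mice had the sign of the mean in 1290 of the genes called higher and in 2795 of those called lower, and over all genes tested the 4 signs were the same for 13.5% upward and 28.2% downward. The median difference of genes called was 1.33 upward and -1.68 downward. With 4 mice the exact sign-flip permutation test cannot give a two-sided p below 0.125, so limma decides the calls.

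These counts moved with the scale and with the mice included. The median difference of all genes was -0.28. Centring each library on its median moved the median of the fitted differences to 0.16 and the calls to 2985 higher and 1344 lower, so the share of calls that were higher went from 31.2 to 69%, and quantile normalization gave 2311 higher and 1840 lower (55.7%). A gene near the threshold is thus higher or lower relative to the library total as deposited, and differences below are on that scale unless stated. Without mouse 178 only 14 genes were called higher and 250 lower, without mouse 544 the calls were 786 and 1254, and without mouse 648 they were 658 and 2130. The differences of mouse 178 correlated with those of mouse 544 across genes at r = 0.63 and with those of mice 648 and 286 at 0.46 and 0.40, a description over 21789 genes that are not independent.

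**Figure D2:**
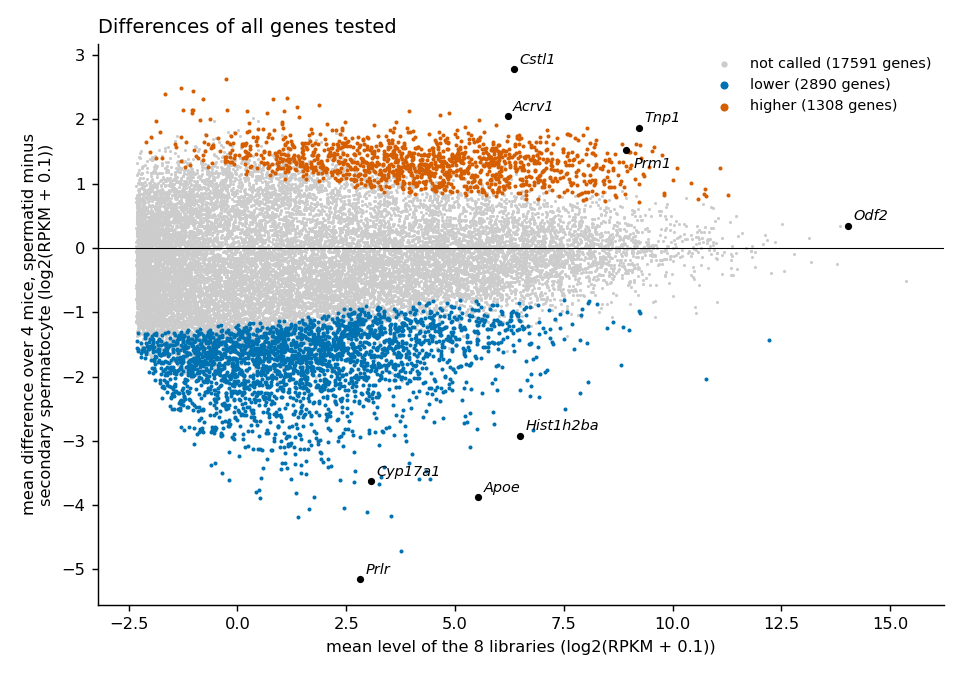
Mean difference over 4 mice (y axis, log2(RPKM + 0.1)) against the mean level of the 8 libraries (x axis, same scale) for each gene tested; orange and blue dots are called higher and lower, and black dots are named genes. The 2890 lower genes reach larger differences than the 1308 higher genes, and Prm1 lies high without being called.

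The largest rises were sought among 915 protein-coding genes that were called, had the same sign in all mice and reached a mean of 5 RPKM in spermatids. *Cstl1*, a cystatin-like gene, had the largest mean at the pseudocount used, though not at 1 RPKM (1.70, against 2.0 for *Acrv1*) or with the highest transcript per gene (2.14, against 2.38 for *Tspan6*), and went from 33.3 to 392 in mouse 178, 0 to 0.41 in mouse 648, 0 to 0.885 in mouse 286 and 47.6 to 179 in mouse 544. It followed the split between mice seen for *Prm1*, and its fold in mice 648 and 286 rests on 0 RPKM in secondary spermatocytes (2.78 ± 0.78 (SD, n = 4), limma adjusted p = 0.00886). *Cpvl*, which encodes a carboxypeptidase, went from 2.03 to 10.1 in mouse 178, 0.812 to 4.58 in mouse 648, 2.4 to 8.99 in mouse 286 and 4 to 10.4 in mouse 544, so that every spermatid library lay above every secondary spermatocyte library (1.96 ± 0.46 (SD, n = 4), limma adjusted p = 0.0101). *Smim9*, an X-linked gene of a small membrane protein, went from 0.393 to 8.44 in mouse 178, 2.17 to 4.43 in mouse 648, 0.741 to 6.45 in mouse 286 and 2.05 to 3.68 in mouse 544, with no overlap between fractions either (2.22 ± 1.59 (SD, n = 4), limma adjusted p = 0.0227). *Morn3*, whose product carries MORN repeats, went from 102 to 469.8 in mouse 178, 5.33 to 25.2 in mouse 648, 28.0 to 68.7 in mouse 286 and 316 to 1079.7 in mouse 544 and changed by a similar amount in each mouse although its level differed (1.87 ± 0.44 (SD, n = 4), limma adjusted p = 0.00886).

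The other 8 were *1700024P04Rik* (mean difference 2.14), which encodes the spermatid histone variant H2BL1, the tetraspanin gene *Tspan6* (2.10), *Ankrd9* (2.07), *Acrv1*, the collagen gene *Col22a1* (2.0), the X-linked *1700020N15Rik* (1.97), the oviductin gene *Ovgp1* (1.91) and the X-linked *Gm5169* (1.87). Their adjusted p lay between 0.00886 and 0.0147. Without mouse 178 only *Cstl1*, *Morn3* and *Acrv1* of the 12 kept the call. The others then had a limma adjusted p of 0.0526 (*Cpvl*) to 0.0969 (*Smim9*). *Ovgp1* did not follow the split between mice, since its spermatid level was highest in mouse 286, at 224 RPKM. Of the 12, 4 are X-linked, against 657 of the 16426 protein-coding genes tested and 121 of the 1053 called higher. Without mouse 178, 0 X-linked protein-coding genes were called higher.

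The largest falls, among 1179 genes by the same rule, were larger in size than the rises just given. *Prlr*, the prolactin receptor gene, went from 12.96 to 0.633 in mouse 178, 23.5 to 0.414 in mouse 648, 12.999 to 0.18 in mouse 286 and 5.2 to 0.026 in mouse 544, a fall to 2.81% of the secondary spermatocyte level in the geometric mean (-5.16 ± 0.67 (SD, n = 4), limma adjusted p = 0.00208). No library of one fraction reached the level of the other. *Apoe*, the apolipoprotein E gene, went from 109 to 10.4 in mouse 178, 33.4 to 0.871 in mouse 648, 109 to 6.08 in mouse 286 and 87.5 to 11.7 in mouse 544 (-3.88 ± 0.97 (SD, n = 4), limma adjusted p = 0.00579). *Pmp22*, a membrane protein gene of myelin, went from 16.1 to 0.241 in mouse 178, 42.5 to 0.606 in mouse 648, 22.0 to 4.41 in mouse 286 and 5.62 to 0.66 in mouse 544 (-4.17 ± 1.83 (SD, n = 4), limma adjusted p = 0.00886). *Cyp17a1*, the 17-alpha-hydroxylase of testosterone synthesis in Leydig cells, went from 25.0 to 2.97 in mouse 178, 18.9 to 0.961 in mouse 648, 3.51 to 0.358 in mouse 286 and 14.1 to 0.597 in mouse 544 (-3.63 ± 0.73 (SD, n = 4), limma adjusted p = 0.00579).

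The other 8 were *Mfap4* (-4.10) and *Dcn* (-3.59) of the extracellular matrix, *Cbr2* (-4.06), *Akr1cl* (-4.04) and *Ephx1* (-3.67), which encode or resemble enzymes that reduce carbonyls or open epoxides, the secreted serpin gene *Serpinf1* (-3.64), the small GTPase gene *Rhoj* (-3.87) and the tafazzin gene *Taz* (-3.60). They fell in every mouse, with an adjusted p between 0.00579 and 0.0122. Several of them mark connective tissue or Leydig cells rather than germ cells, and the somatic lists are given below. *Ephx1* fell least in mouse 178, from 25.2 to 12.97 RPKM.

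**Figure D3:**
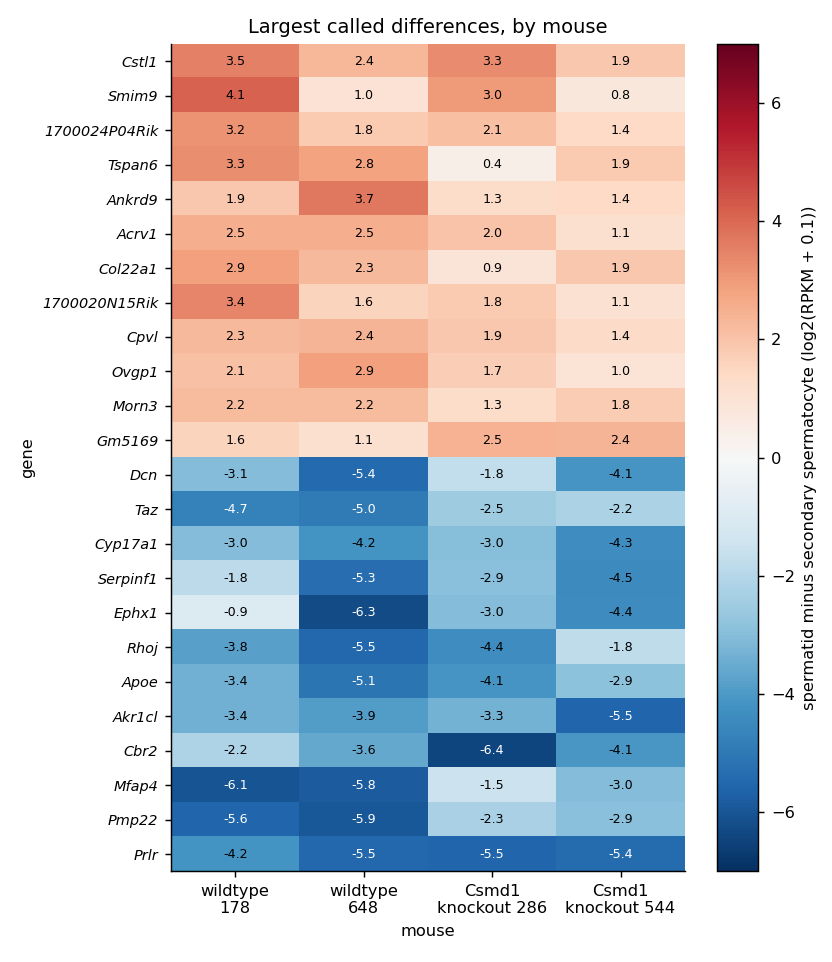
Difference of each mouse, spermatid minus secondary spermatocyte on the log2(RPKM + 0.1) scale, for the 12 genes with the largest called rise and the 12 with the largest called fall. Every cell of the upper block is positive and every cell of the lower block negative, from 0.43 to 4.11 and from -6.40 to -0.95 in single mice.

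The 4 largest rises among long noncoding and antisense genes were *1700071M16Rik* (1.78), *St8sia3os* (1.70), *1700058P15Rik* (1.69) and *4930444M15Rik* (1.68). *Meg3*, an imprinted noncoding RNA gene, had the largest fall and went from 8.85 to 0.026 in mouse 178, 6.59 to 0.619 in mouse 648, 65.4 to 4.26 in mouse 286 and 21.8 to 0.359 in mouse 544 (-4.71 ± 1.38 (SD, n = 4), limma adjusted p = 0.00579). *Gm14244* (-2.84), *Ccdc142os* (-2.61) and *Gm16278* (-2.55) followed. The strand of the libraries is not given in the sources used here, so reads of an antisense gene and of its partner cannot be told apart. Of 867 long intergenic genes tested, 56 were higher and 63 lower, and of 1160 antisense genes 79 and 68. The shares higher were 6.5 and 6.8%, near the 6.00% of all genes, and the shares lower 7.3 and 5.9%, against 13.3%. Quantile normalization gave 135 and 16 for the intergenic and 181 and 22 for the antisense genes, and without mouse 178 none of either class was called higher (without mice 648, 286 and 544, 30, 34 and 33 intergenic and 28, 61 and 41 antisense genes).

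Genes of spermatid chromatin rose in part. Of 16 tested, 8 rose and 1 fell, with a median difference of 1.46, against -0.28 over all genes. The median was 2.66 in mouse 178, 1.5 in mouse 544, 0.46 in mouse 648 and 0.20 in mouse 286. Beside *Tnp1*, *Prm2* went from 304 to 1409 in mouse 178, 0.525 to 2.01 in mouse 648, 2.76 to 2.82 in mouse 286 and 587 to 2179 in mouse 544 (1.47 ± 0.98 (SD, n = 4), limma adjusted p = 0.0228), and *Prm3* from 77.0 to 473 in mouse 178, 10.1 to 27.3 in mouse 648, 21.4 to 61.9 in mouse 286 and 304 to 744 in mouse 544 (1.72 ± 0.61 (SD, n = 4), limma adjusted p = 0.0101). *Chd5*, a chromatin remodeller needed for the exchange of histones, went from 99.993 to 338 in mouse 178, 20.5 to 74.9 in mouse 648, 58.4 to 137 in mouse 286 and 226 to 1001 in mouse 544 and was thus also higher in the spermatids of the mice that almost lacked *Prm1* (1.75 ± 0.38 (SD, n = 4), limma adjusted p = 0.00886). The linker histone variants *H1fnt* and *Hils1* rose by 1.63 and 1.51, and the variant *H2al2a* by 1.46. *Hist1h2ba*, the testis histone H2B of meiotic cells, was the member that fell and went from 181 to 17.7 in mouse 178, 4.08 to 1.1 in mouse 648, 44.3 to 28.1 in mouse 286 and 441 to 7.37 in mouse 544 (-2.92 ± 2.26 (SD, n = 4), limma adjusted p = 0.0191). *Tnp2* was higher in mice 178 and 544 and lower in mice 648 and 286 (0.88 ± 1.78 (SD, n = 4), limma adjusted p = 0.268). *Tssk6* was at 0 in both fractions of mouse 648. With mouse 178, 648, 286 or 544 left out, 1, 5, 8 and 5 members were called higher.

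Of 25 genes of the acrosome and of the membranes that meet the egg, 14 rose and 1 fell (median 1.14), and the list median lay between 0.79 and 1.40 in every mouse. *Spaca1* went from 56.3 to 279 in mouse 178, 44.3 to 193 in mouse 648, 47.7 to 149 in mouse 286 and 95.3 to 233 in mouse 544, with no overlap between fractions (1.84 ± 0.46 (SD, n = 4), limma adjusted p = 0.00886). *Eqtn*, another acrosomal membrane protein gene, went from 37.8 to 215 in mouse 178, 41.2 to 96.6 in mouse 648, 22.9 to 118 in mouse 286 and 59.5 to 116 in mouse 544, also without overlap (1.76 ± 0.78 (SD, n = 4), limma adjusted p = 0.0111). *Izumo1*, whose product binds the egg receptor, rose by 1.46, from 1.89 to 46.7 RPKM over the secondary spermatocyte libraries to 9.11 to 110.3 over the spermatid libraries. *Spam1*, a sperm surface hyaluronidase gene, rose by 1.37 and *Zp3r*, a matrix protein gene, by 1.74. *Gopc*, a Golgi protein needed to form the acrosome, fell and went from 7.35 to 1.25 in mouse 178, 4.54 to 1.96 in mouse 648, 3.02 to 1.46 in mouse 286 and 4.48 to 0.567 in mouse 544 (-1.85 ± 0.90 (SD, n = 4), limma adjusted p = 0.0156). The genes of the protease acrosin, *Acr* (0.21 ± 0.27 (SD, n = 4), limma adjusted p = 0.533), and of its binding protein, *Acrbp* (-0.03 ± 0.42 (SD, n = 4), limma adjusted p = 0.935), which are transcribed from meiosis on, did not pass. Leaving out mouse 178, 648, 286 or 544 in turn left 2, 11, 13 and 11 called higher.

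Of 36 flagellar genes tested, 10 rose and 0 fell (median 0.15). Those that rose included the fibrous sheath genes *Akap4* (1.67 ± 0.77 (SD, n = 4), limma adjusted p = 0.0116), *Akap3* (1.42), *Cabyr* (1.45), *Ropn1* (1.03) and *Fsip1* (1.06), the outer dense fibre gene *Odf1* (1.49) and the mitochondrial sheath gene *Smcp*. *Smcp* went from 296 to 967 in mouse 178, 184 to 578 in mouse 648, 118 to 464 in mouse 286 and 599 to 1344 in mouse 544, so that it was plentiful in all spermatids and the difference was close to equal among mice (1.62 ± 0.34 (SD, n = 4), limma adjusted p = 0.00886). Among axonemal members *Tekt2*, a tektin gene, was called (1.06), and others did not pass, with values such as -0.49 for the dynein gene *Dnah1*, -0.41 for the central pair gene *Spag6l* and 0.18 for the tektin gene *Tekt1*. *Odf2*, another outer dense fibre gene, stood at 11509 to 25588 RPKM in spermatids and was not called (0.34 ± 0.10 (SD, n = 4), limma adjusted p = 0.252). *Oaz3* had no row under that name. The counts without mouse 178, 648, 286 and 544 were 1, 7, 8 and 8 called higher.

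Of 20 genes of the manchette, a microtubule skirt around the elongating nucleus, and of head shape, 8 rose and 1 fell (median 0.52). *Sun5*, which couples the head to the tail, went from 50.7 to 212 in mouse 178, 17.1 to 54.4 in mouse 648, 36.9 to 128 in mouse 286 and 158 to 333 in mouse 544 (1.65 ± 0.42 (SD, n = 4), limma adjusted p = 0.00985). *Spag4*, a SUN domain gene, went from 241 to 802 in mouse 178, 30.1 to 129 in mouse 648, 176 to 418 in mouse 286 and 868 to 2241 in mouse 544 (1.61 ± 0.38 (SD, n = 4), limma adjusted p = 0.00897). *Spem1*, needed to remove cytoplasm, was at most 0.671 RPKM in mice 648 and 286 and went from 35.6 to 188 RPKM in mouse 178 (1.47 ± 0.85 (SD, n = 4), limma adjusted p = 0.0241). *Cntrob*, a centriolar gene, fell (-2.02 ± 1.14 (SD, n = 4), limma adjusted p = 0.0147). Among 10 kinase genes 4 rose, namely *Tssk2* (1.36), *Tssk4* (1.40), *Tssk5* (1.34) and the substrate gene *Tsks* (1.47), and 0 fell. With mouse 178, 648, 286 or 544 left out, 1, 8, 8 and 6 of the shape genes and 0, 2, 4 and 3 of the kinase genes were called higher.

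Of 20 genes of ion transport 7 rose and 1 fell (median 0.30). CatSper is the calcium channel of the sperm tail, and its genes *Catsper1* (1.32), *Catsper3* (1.46) and *Catsper4* (1.61) and the subunit gene *Efcab9* (1.59) rose, whereas *Catsper2* did not pass (0.20 ± 0.40 (SD, n = 4), limma adjusted p = 0.579). The sperm potassium channel gene *Kcnu1* (1.32), its partner *Lrrc52* (1.51) and the sperm sodium pump gene *Atp1a4* (1.53) rose as well, and the channel gene *Pkd2l1* fell (-2.17). *Catspere1* had no row under that name. Leaving out mouse 178, 648, 286 or 544 in turn left 0, 7, 7 and 7 called higher.

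Of 25 genes of glycolysis and its isozymes tested, 5 rose and 6 fell (median -0.13, or 0.31 after median centring, which gave 8 higher and 2 lower). *Gapdhs*, the sperm form of glyceraldehyde phosphate dehydrogenase, went from 287 to 929 in mouse 178, 43.5 to 132 in mouse 648, 71.1 to 163 in mouse 286 and 676 to 1878 in mouse 544 (1.49 ± 0.22 (SD, n = 4), limma adjusted p = 0.00897). *Gapdh*, the form of other cells, went from 311 to 107 in mouse 178, 117 to 32.8 in mouse 648, 450.4 to 188 in mouse 286 and 173 to 82.6 in mouse 544 (-1.42 ± 0.33 (SD, n = 4), limma adjusted p = 0.0102). The retrogenes of aldolase, *Aldoart1* (1.43) and *Aldoart2* (1.61), also rose, although near-identical copies leave the assignment of their reads uncertain, as did the hexokinase gene *Hk1* (0.82) and the monocarboxylate carrier gene *Slc16a7* (1.13). *Ldhb* (-1.89), *Hk2* (-1.51), *Pgam1* (-1.40), the glucose carrier gene *Slc2a3* (-1.28) and the X-linked *Pdha1* (-1.5) fell. The meiotic forms *Ldhc* (-0.13 ± 0.49 (SD, n = 4), limma adjusted p = 0.727) and *Pgk2* (0.54 ± 0.26 (SD, n = 4), limma adjusted p = 0.136) did not pass. Without mouse 178, 648, 286 and 544 the counts were 0, 4, 5 and 4 higher and 0, 4, 4 and 2 lower.

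Of 20 genes of post-meiotic transcription, 8 rose and 0 fell (median 0.57). They were *Fhl5* (1.31), the coactivator known as ACT, *Rfx1* (1.08), *Rfx3* (1.03), *Taf7l* (0.95), *Spz1* (1.34), *Sox5* (1.29), *Hsf2* (1.22) and *Hsfy2* (1.47). *Spz1*, a helix-loop-helix gene, went from 38.5 to 126 in mouse 178, 31.6 to 80.9 in mouse 648, 30.7 to 75.5 in mouse 286 and 113 to 224 in mouse 544 (limma adjusted p = 0.0112). *Crem*, which directs many genes of round spermatids, went from 979 to 1908 in mouse 178, 2372 to 2928 in mouse 648, 1309 to 2668 in mouse 286 and 1374 to 1647 in mouse 544, higher in each mouse but short of the threshold (0.64 ± 0.41 (SD, n = 4), limma adjusted p = 0.0809). *Rfx2*, needed to begin spermatid growth, was lower in mice 178 and 544 and higher in mice 648 and 286 (-0.04 ± 0.69 (SD, n = 4), limma adjusted p = 0.928). The counts without mouse 178, 648, 286 and 544 were 0, 5, 7 and 6 called higher.

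Of 20 genes of ubiquitin transfer and cytoplasm removal, 6 rose and 2 fell (median 0.69), and median centring gave 14 higher and 1 lower. *Klhl10*, a ubiquitin ligase adaptor needed for male fertility, went from 36.2 to 144 in mouse 178, 18.3 to 42.3 in mouse 648, 26.9 to 124 in mouse 286 and 85.7 to 182 in mouse 544 (1.62 ± 0.56 (SD, n = 4), limma adjusted p = 0.0103). *Rnf8*, a ligase that acts when histones are modified at meiosis and after, went from 30.2 to 8.09 in mouse 178, 8.75 to 6.4 in mouse 648, 25.1 to 6.1 in mouse 286 and 46.6 to 8.76 in mouse 544 (-1.69 ± 0.86 (SD, n = 4), limma adjusted p = 0.0142). *Psma7*, a subunit of the standard proteasome, fell (-1.27). With mouse 178, 648, 286 or 544 left out, 0, 6, 4 and 3 were called higher.

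**Figure D4:**
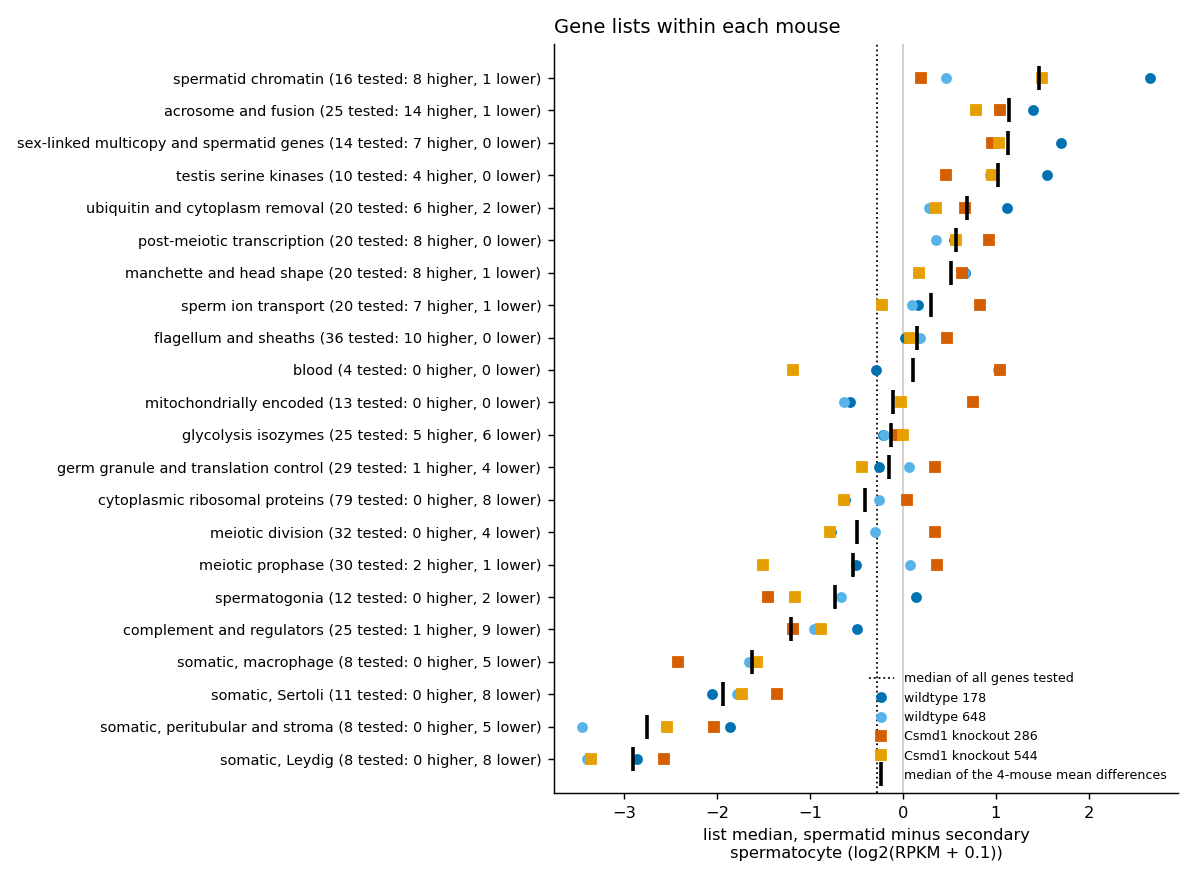
Median difference of the tested members of each gene list in each mouse (circles wildtype, squares knockout), with the median of the 4-mouse means as a black bar and the median of all genes, -0.28, as a dotted line. The 4 somatic lists lie below the dotted line in every mouse, and the spermatid chromatin list spreads most among mice, from 0.20 to 2.66.

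On the X chromosome, which is silenced during meiosis and remains partly repressed in spermatids, 18.4% of 657 protein-coding genes tested were higher and 17.7% lower, against 5.9 and 15.1% of 15703 autosomal genes. Single autosomes ranged from 4.5 to 7.8% higher. On the Y chromosome 9 of 53 protein-coding genes were higher and 0 lower. The median difference was 0.10 on the X, 0.85 on the Y and -0.33 on autosomes. The X median was 0.49 in mouse 178, -0.20 in mouse 286 and 0.00 in the other two mice, so it equalled the median of all genes in mouse 286 and lay above it in the others. Without mouse 178, 0 X-linked protein-coding genes were called higher, and without mice 648, 286 and 544 the numbers were 72, 70 and 89, in place of 121. For Y-linked genes, 9 with all mice, they were 0 without mouse 178 and 2, 1 and 4 without mice 648, 286 and 544. Median centring gave 2080 autosomal genes higher and 1104 lower, 205 X-linked genes higher and 62 lower, and 28 Y-linked genes higher.

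Among 14 tested multicopy and spermatid genes of the sex chromosomes, 7 rose and 0 fell (median 1.13), and 12 rose under quantile normalization. Leaving out mouse 178, 648, 286 or 544 in turn left 0, 6, 5 and 6 called higher. *Tsga8*, an X-linked gene of haploid germ cells, went from 11.5 to 40.3 in mouse 178, 20.6 to 45.6 in mouse 648, 8.93 to 29.6 in mouse 286 and 15.6 to 31.8 in mouse 544 without overlap between fractions (1.42 ± 0.39 (SD, n = 4), limma adjusted p = 0.0122). *Akap4*, *Cypt1* (1.37), *Cypt3* (1.28), *Fthl17a* (1.11), *1700013H16Rik* (1.52) and *Slx* (1.52) were the others. The summed RPKM of *Slx* was below 1 in all 8 libraries, and reads shared among its copies leave that value uncertain. *Sly*, *Xmr* and *H2al1a* had no row under those names.

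Of 30 genes of meiotic prophase, 2 rose and 1 fell (median -0.54), and median centring gave 4 higher and 1 lower. The share higher, 6.7%, was near the 6.0% of all genes, and the share lower was 3.3% against 13.3%. The list median was -1.51 in mouse 544 and 0.37 in mouse 286. *Sycp3*, a component of the synaptonemal complex, went from 175 to 79.1 in mouse 178, 888 to 653 in mouse 648, 203 to 352 in mouse 286 and 225 to 28.6 in mouse 544 (-0.94 ± 1.57 (SD, n = 4), limma adjusted p = 0.19). *Rec8*, a meiotic cohesin subunit gene, rose and went from 28.7 to 104 in mouse 178, 10.9 to 23.8 in mouse 648, 21.2 to 53.0 in mouse 286 and 54.8 to 101.02 in mouse 544 (1.3 ± 0.42 (SD, n = 4), limma adjusted p = 0.0134), as did *Syce2* (1.07), while the mismatch repair gene *Mlh3* fell (-2.42). Of 32 genes of the divisions, 0 rose and 4 fell (median -0.49): the kinase genes *Cdk1*, *Cdk2* (-1.65) and *Aurkb* (-1.31) and *Fbxo43* (-1.89), an inhibitor of the anaphase-promoting complex. The share lower, 12.5%, was near the 13.3% of all genes, and median centring gave 1 higher and 2 lower. The median of the division list was 0.35 in mouse 286 and -0.77, -0.3 and -0.78 in mice 178, 648 and 544. *Cdk1*, the kinase that drives entry into division, went from 49.3 to 19.2 in mouse 178, 64.9 to 18.3 in mouse 648, 31.3 to 22.5 in mouse 286 and 22.8 to 5.94 in mouse 544 (-1.39 ± 0.66 (SD, n = 4), limma adjusted p = 0.0162). The cyclin genes *Ccna1* (0.08 ± 0.62 (SD, n = 4), limma adjusted p = 0.859) and *Ccnb1* (0.01 ± 0.71 (SD, n = 4), limma adjusted p = 0.986) did not pass. The counts without mouse 178, 648, 286 and 544 were 0, 2, 9 and 2 division genes called lower.

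Of 29 genes of germ granules and of stored messenger RNA, 1 rose and 4 fell (median -0.15, or 0.29 after median centring). The share lower, 13.8%, was near the 13.3% of all genes, and median centring gave 3 higher and 3 lower. Those that fell were *Piwil1*, *Piwil2* (-1.73), *Tdrd5* (-2.34) and *Mov10l1* (-1.61), which act with small RNAs that guide the silencing of transposons, as do other members that were not called. *Piwil1* went from 84.6 to 10.6 in mouse 178, 28.2 to 17.8 in mouse 648, 21.4 to 12.7 in mouse 286 and 122 to 7.8 in mouse 544 (-2.09 ± 1.64 (SD, n = 4), limma adjusted p = 0.0239), and its level in the primary spermatocytes of mice 178, 648 and 544 was 138, 121 and 437 RPKM. *Paip2*, an inhibitor of poly(A)-binding protein, rose (0.87). With mouse 178, 648, 286 or 544 left out, 0, 6, 6 and 1 were called lower. Of 12 spermatogonial genes, *Uchl1* (-2.02) and *Dmrt1* (-1.46) fell and 0 rose. That is 16.7% lower, near the 13.3% of all genes. Of 79 genes of cytoplasmic ribosomal proteins 0 rose and 8 fell (median -0.41, or 0.03 after median centring), among them *Rpl10a* (-1.95) and the X-linked *Rps4x* (-2.21). Their share lower was 10.1% against 13.3% of all genes, and 15 were lower under quantile normalization and 3 after median centring. Without mouse 178, 648, 286 and 544 the ribosomal genes called lower were 2, 4, 8 and 4, and 1 spermatogonial gene was called lower in each case. None of the 13 mitochondrially encoded genes and none of 4 blood genes was called by limma.

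The median difference of each list of testicular somatic cells was below 0 in every mouse. All 8 Leydig cell genes fell (median -2.90), as did 8 of 11 Sertoli cell genes (-1.94), 5 of 8 macrophage genes (-1.62) and 5 of 8 peritubular and stromal genes (-2.75). The summed RPKM of the Leydig genes was 19.3 to 79.7 in secondary spermatocytes and 2.54 to 12.4 in spermatids. For the Sertoli genes it was 49.9 to 183 and 8.56 to 59.8, for the macrophage genes 10.2 to 19.1 and 2.35 to 8.76, and for the peritubular and stromal genes 22.3 to 143 and 3.45 to 32.9. The Leydig and macrophage sums did not overlap between fractions, and the Sertoli and stromal sums did. *Insl3*, a Leydig cell hormone gene, went from 36.3 to 7.06 in mouse 178, 12.2 to 1.43 in mouse 648, 6.41 to 1.05 in mouse 286 and 46.4 to 3.26 in mouse 544 (-2.91 ± 0.65 (SD, n = 4), limma adjusted p = 0.00579). *Col1a2*, a collagen gene, went from 4.89 to 0.696 in mouse 178, 9.98 to 1.07 in mouse 648, 25.7 to 4.32 in mouse 286 and 2.96 to 0.207 in mouse 544 (-2.90 ± 0.37 (SD, n = 4), limma adjusted p = 0.00579), and the macrophage gene *Cd68* from 6.04 to 0.544 in mouse 178, 5.23 to 0.4 in mouse 648, 6.3 to 0.252 in mouse 286 and 2.05 to 0.245 in mouse 544 (-3.37 ± 0.64 (SD, n = 4), limma adjusted p = 0.00579). At most 1 Leydig gene was at 0 in a spermatid library, and the Sertoli gene *Rhox5* was at 0 in all 8. In the whole testes of mice 178, 648 and 286, 1 Sertoli gene was also at 0. The value of *Rhox5* therefore does not show a lack of Sertoli RNA in the sorted fractions. Without mouse 178, 4 Leydig, 3 Sertoli, 2 macrophage and 5 stromal genes were called lower. The share of the 2890 falling genes that goes with somatic RNA in the secondary spermatocyte fraction was not tested.

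The complement system is the pathway in which the study places the product of *Csmd1*, a membrane protein with complement control domains. Of 25 complement genes tested, 1 rose and 9 fell (median -1.20). The share higher was 4.0% against 6.0% of all genes, and the share lower was 36.0% against 13.3%. *Csmd1* went from 0.713 to 1.66 in mouse 178, 0.093 to 0.18 in mouse 648, 0.691 to 1.21 in mouse 286 and 2.76 to 6.33 in mouse 544, higher in each mouse of either genotype but short of the threshold (0.89 ± 0.31 (SD, n = 4), limma adjusted p = 0.106). It passed in limma under quantile normalization (1.32, adjusted p = 0.0328) and median centring (1.32, adjusted p = 0.0298). The study reports that knockout testes had fewer *Csmd1* reads than wildtype over most exons and more over the last ones. The sums of mice 286 and 544 therefore need not measure the same transcript as those of the wildtype mice. In mouse 648 both values were near the pseudocount of 0.1 RPKM. *C3*, the central component, went from 3.43 to 2.46 in mouse 178, 1.37 to 2.07 in mouse 648, 15.1 to 3.37 in mouse 286 and 9.68 to 1.01 in mouse 544, lower in 3 mice and higher in mouse 648 (-1.29 ± 1.66 (SD, n = 4), limma adjusted p = 0.12). Without mouse 648 it passed in limma (-1.91, adjusted p = 0.0445). *Cd46*, a cofactor for cleaving *C3* that in mice is largely limited to the sperm acrosome, went from 3.13 to 13.1 in mouse 178, 0.043 to 0.053 in mouse 648, 0.707 to 1.78 in mouse 286 and 2.83 to 23.4 in mouse 544 and was the member that rose (1.59 ± 1.23 (SD, n = 4), limma adjusted p = 0.0436). It was close to 0 in both fractions of mouse 648. The call of *Cd46* was lost without mouse 178, 286 or 544 and with either other pseudocount, where the limma adjusted p was 0.0523 and 0.0562.

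The complement genes that fell included *Clu*, *Serping1*, *C1s1* (-2.78), *C1ra* (-2.33), *C1qa* (-1.53), *C1qc* (-1.98), *C2* (-1.48) and *C3ar1* (-1.5). *Serping1*, the inhibitor of the first component, went from 10.3 to 1.69 in mouse 178, 41.0 to 2.11 in mouse 648, 13.9 to 4.27 in mouse 286 and 6.76 to 0.761 in mouse 544 (-2.86 ± 1.06 (SD, n = 4), limma adjusted p = 0.00886). *Clu*, the clusterin gene, which Sertoli cells express strongly, went from 403 to 53.8 in mouse 178, 226 to 59.0 in mouse 648, 638 to 277 in mouse 286 and 202 to 25.2 in mouse 544 (-2.26 ± 0.85 (SD, n = 4), limma adjusted p = 0.00886). The somatic lists fell over the same pairs of libraries, *C1qa* belongs to the macrophage list as well, and the part of somatic RNA in these falls was not tested. The other regulators on the germ cell surface, *Cd55* (0.69 ± 0.46 (SD, n = 4), limma adjusted p = 0.102) and *Cd59b* (0.52 ± 0.64 (SD, n = 4), limma adjusted p = 0.242), did not pass. Without mouse 178, 2 complement genes were called lower and 0 higher, and without mice 648, 286 and 544 the numbers called lower were 6, 4 and 6. Quantile normalization gave 3 higher and 5 lower, and median centring 5 and 5.

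None of the 10 protein-coding genes with the highest mean summed RPKM in spermatids was called by limma, a ranking that rests on sums in which reads count in several transcripts: *Odf2*, *Lyar*, *Gstm5*, *Pabpc1*, *Psmc3*, *Csnk2b*, *Hsp90aa1*, *Meig1*, *Adam3* and *Fam229b*. Of all protein-coding genes tested 6.4% were called higher and 15.1% lower, so the lack of calls among 10 genes does not set them apart. Their mean differences lay between -0.36 (*Hsp90aa1*, limma adjusted p = 0.426) and 0.38 (*Csnk2b*, limma adjusted p = 0.251). *Pabpc1*, the poly(A)-binding protein gene, was lower in the spermatids of mice 178 and 544 and higher in those of mice 648 and 286, from 6383 to 2879.6 in mouse 178, 14340.1 to 15914 in mouse 648, 6068 to 9578 in mouse 286 and 10804 to 7596 in mouse 544, and *Hsp90aa1*, *Lyar* and *Psmc3* had the same signs.

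By SD of the 4 differences, 8 of the first 10 protein-coding genes with a mean of at least 5 RPKM were predicted genes numbered *Gm10717* to *Gm17535*, 6 of them on chromosome 9 and 2 on chromosome 2, and in all 8 the secondary spermatocyte level was high in mice 648 and 544 and low in mice 178 and 286. *Gm10800* went from 14.1 to 182 in mouse 178, 6237 to 965 in mouse 648, 7.19 to 2.85 in mouse 286 and 4084 to 306 in mouse 544 (-1.01 ± 3.28 (SD, n = 4), limma adjusted p = 0.455). Near-identical copies leave such counts uncertain. The remaining 2 were *Gm3448* and *Prkcd*, a protein kinase C gene, which went from 53.8 to 245 in mouse 178, 4.57 to 0.194 in mouse 648, 7.02 to 3.11 in mouse 286 and 105 to 463 in mouse 544, upward in the mice with high *Prm1* and downward in the others (-0.20 ± 2.97 (SD, n = 4), limma adjusted p = 0.884).

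Whether the stage difference depended on genotype was tested as an interaction. None of 21789 genes was called (0%, smallest limma adjusted p = 1.0), and 676 had an unadjusted p below 0.05, which is 3.1% of genes tested. In wildtype mice alone, 892 genes were higher and 1150 lower in spermatids, and in knockout mice alone 0 and 50. Those 2 pairs of counts do not show a difference between genotypes, since each rests on 2 mice and the interaction gave no call.

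The 2 unpaired libraries allowed a look outside the fit, with 1 library per stage, different mice and different genotypes, and hence no test. The spermatid library of mouse 351 lay above the secondary spermatocyte library of mouse 550 in 76.5% of the genes called higher, in 7.0% of those called lower and in 27.3% of all genes tested. *Spaca1* was 142 RPKM against 94.5, *Tnp1* 1868 against 714 and *Hist1h2ba* 15.2 against 82.0. *Prlr* stood at 5.58 and 5.53, so that the gene with the largest mean fall in 4 mice was at a like level in both of these libraries. The library of mouse 351 was the shallower, with an estimated 23821132 reads.

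**Figure D5:**
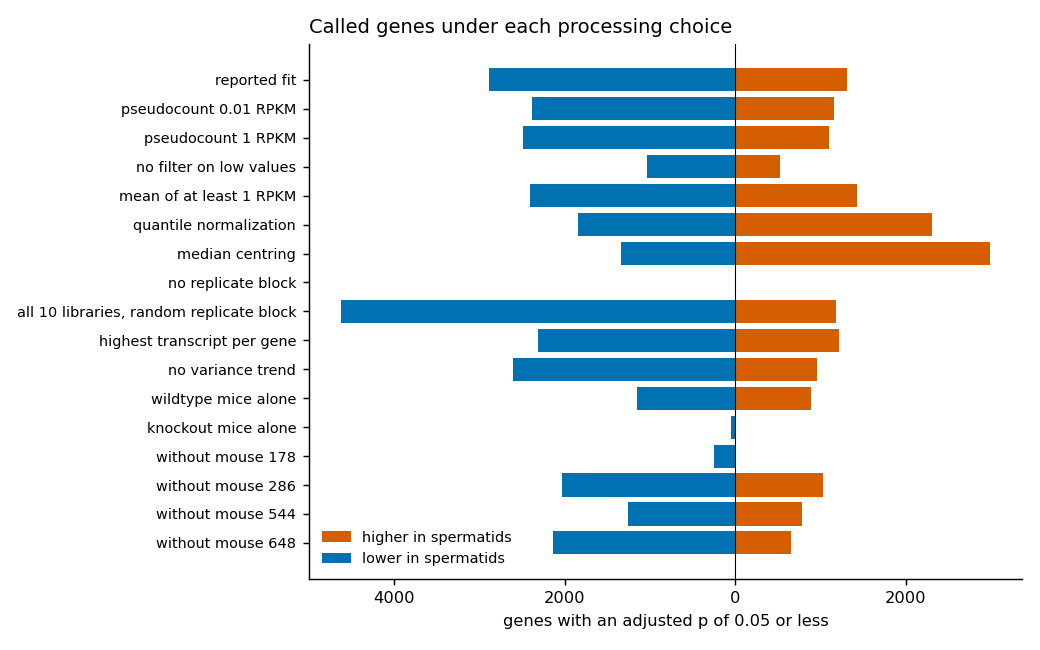
Number of genes with an adjusted p of 0.05 or less, higher (orange, right) and lower (blue, left) in spermatids, under the reported fit and 16 other processing choices. Median centring and quantile normalization give more higher than lower genes, and without mouse 178 or without the mouse block few or none remain.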

How the data were processed

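RNA of sorted germ cells was sequenced with paired ends, and the authors aligned the reads with TopHat2 against Ensembl gene models. They deposited an RPKM value for each of 94480 transcripts in 28 libraries. Value times transcript length fell on whole reads, within 0.06 of a read, for 93.2 to 94.3% of low values in the 8 libraries (12.0% by chance), which gave the depth. GENCODE M21 (GRCm38) matched 95.6% of transcripts, which were summed to 37122 genes; transcripts without a value counted as 0.

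Groups, mice and genotypes came from the labels, and 8 libraries of 4 mice entered the fit. Libraries of 1 mouse were paired because they came from 1 testis. Residuals from the stage means correlated across genes at r = 0.36 to 0.69 within a mouse and at a median of -0.29 between mice. Residuals of a stage cancel out for each gene, which by itself pushes the values between mice down. The contrast of these correlations is therefore no separate evidence for the pairing. limma 3.58.1 in R 4.3.3 (lmFit, eBayes with trend) tested log2(RPKM + 0.1) with mouse as a fixed block, for genes with a mean of at least 0.1 RPKM, with Benjamini-Hochberg adjustment over all genes tested. A fold is on that scale and understates low genes. Tables and figures used Python 3.11.15, numpy 2.4.6, pandas 2.3.3 and matplotlib 3.10.9. The fit was also run on simulated data with equal, independent noise in every library. The real differences split between mice, so that run cannot show how reliable the calls are here. The study's methods describe PEER adjustment and then quantile normalization of the RPKM values. The whole reads recovered are those of values without such steps, so the files were treated as unadjusted. Quantile normalization was run as an alternative, and PEER and PoissonSeq were not run.

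The members and gene lists were chosen with earlier results of these data known. The genes named were *Prm1*, *Tnp1*, *Acrv1*, *Csmd1* and *C3*, the list members called with the largest differences or against their list, the 12 protein-coding and 4 noncoding genes with the largest called differences each way (same sign in 4 mice, mean of at least 5 RPKM in the higher stage), the 10 most abundant in spermatids and the 10 most variable; list members beyond these, including those that did not pass, were named after their values were seen. Promoters came from RefSeq. Alternatives covered pseudocount, filter, normalization, pairing, gene value, variance trend, genotype and each mouse left out. Intervals cover the spread between mice only. 1 list member is counted but not reported by name here.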

Additional observations from a re-analysis of the deposited data

Results flagged for a closer look

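The 4 differences of each of 192 named genes were searched for a single mouse that stood apart from the others by Dixon's criterion. Chance meets it in about 1 of 20 groups, and 5 of the 192 did, a smaller share. The 5 are therefore given as values and not as results about these mice. *Prlr* fell less in mouse 178, with a difference of -4.16 against -5.55 to -5.39 in the other mice. *1700013H16Rik* was 2.59 higher in mouse 178, against 1.03 to 1.26. *Dmrt1* differed by -0.57 in mouse 178, against -1.82 to -1.63. *Egr1* differed by -1.61 in mouse 286, against -3.39 to -3.12, and *Tekt1* by 0.73 in mouse 286, against -0.05 to 0.05.

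In 3 other named genes, none of them called, both wildtype mice lay below 0 and both knockout mice above it, although mouse 544 was at 0.00 after rounding for *Fam229b*. The knockout minus wildtype difference was 0.51 for *Fam229b*, 0.58 for *Acrbp* and 0.69 for *Ldhc*. The interaction in limma, with an adjusted p of 1.0 for each of the 3, did not pass.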

How the results depend on the processing

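The calls moved with the processing. Against 1308 genes higher and 2890 lower, no filter on low values gave 524 and 1035 of 31742 genes tested, quantile normalization 2311 and 1840, median centring 2985 and 1344, and the 10 libraries of both stages with mouse as a random block 1185 and 4616. Wildtype mice alone gave 892 and 1150 and knockout mice alone 0 and 50. Leaving out 1 mouse gave 14 to 1028 genes higher and 250 to 2130 lower, the lowest counts without mouse 178. Without the replicate block, that is without pairing the libraries of a mouse, 0 genes were called in either direction, and 4261 had an unadjusted p below 0.05. The other settings (pseudocounts of 0.01 and 1 RPKM, a filter at 1 RPKM, the highest transcript per gene and no variance trend) gave 960 to 1425 higher and 2315 to 2599 lower. The interaction with genotype gave 0 calls by limma in the reported fit and in 7 alternatives, with 289 to 832 genes at an unadjusted p below 0.05. The causes of these changes were not tested, beyond the smaller number of mice or larger number of genes in the settings concerned.

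Of 152 named genes that were called, 149 kept the call with a pseudocount of 0.01 RPKM, 145 with quantile normalization, 138 with median centring, 120 in wildtype mice alone and 35 without mouse 178, and none changed direction in any of the 16 alternatives. Named genes that gained a call were *Prm1*, *Csmd1*, *Cd55*, *Cd59b*, *Crem* and *Pgk2* with median centring, *Csmd1* with quantile normalization, *Prm1* and *Gm3448* in wildtype mice alone, *Cd55* and *Crem* with the 10 libraries, *Gm10800* and *Gm11168* without mouse 178, *Sycp3* without mouse 286, *Gm3448* without mouse 544 and *C3* without mouse 648. Named genes that were not called changed direction as follows. In wildtype mice alone the differences were *C3* 0.05, *Fam229b* -0.14, *Gm10719* 0.59, *Gm17535* 0.57, *Gm10800* 0.49, *Gm10721* 0.53, *Gm10801* 0.60, *Gm11168* 0.50, *Gm10718* 0.07, *Gm10717* 0.23, *Ccna1* -0.11 and *Ccnb1* -0.45. With median centring the differences were *Lyar* 0.19, *Pabpc1* 0.23, *Psmc3* 0.35, *Hsp90aa1* 0.07, *Gm3448* 0.04, *Prkcd* 0.23, *Acrbp* 0.41, *Ldhc* 0.31, *Rfx2* 0.39 and *Spag6l* 0.03. In knockout mice alone the differences were *Pabpc1* 0.08, *Psmc3* 0.25, *Gm3448* 1.28, *Prkcd* 0.50, *Acrbp* 0.26, *Ldhc* 0.21 and *Rfx2* 0.16. With a pseudocount of 1 RPKM the differences were *Prkcd* 0.28. With the highest transcript per gene the differences were *Prkcd* 0.34 and *Ccnb1* -0.05. With quantile normalization the differences were *Ccnb1* -0.04. With 1 mouse left out at a time they were -0.47 to 0.04 for *Lyar*, -0.50 to 0.10 for *Pabpc1*, -0.38 to 0.18 for *Psmc3*, -0.09 to 0.23 for *Fam229b*, -2.36 to 0.15 for *Gm10719*, -2.38 to 0.12 for *Gm17535*, -1.90 to 0.52 for *Gm10721*, -2.18 to 0.22 for *Gm10801*, -1.82 to 0.61 for *Gm3448*, -1.0 to 1.06 for *Prkcd*, -1.93 to 0.18 for *Gm10717*, -0.19 to 0.14 for *Acrbp*, -0.21 to 0.25 for *Ccna1*, -0.33 to 0.21 for *Ccnb1*, -0.27 to 0.10 for *Ldhc*, -0.26 to 0.24 for *Rfx2* and -0.01 to 0.25 for *Tekt1*. Depth limits genes near 0.1 RPKM, where 1 read in a transcript of 1 kb is worth up to 0.023 RPKM.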

Other observations

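Further gene groups, put together after the values had been seen, are given as values only. Immediate early genes, which cells switch on within minutes of stress or growth signals, were low in spermatids: of 21 genes 1 was higher and 13 lower, with a median difference of -2.05. That is 4.8% higher and 61.9% lower, against 6.0 and 13.3% of all genes tested. *Fos* went from 24.4 to 3.51 in mouse 178, 68.1 to 2.06 in mouse 648, 23.8 to 2.63 in mouse 286 and 18.0 to 1.5 in mouse 544 (-3.59 ± 0.97 (SD, n = 4), limma adjusted p = 0.00579), and *Egr1* from 33.9 to 3.81 in mouse 178, 238 to 22.7 in mouse 648, 33.8 to 11.025 in mouse 286 and 17.9 to 1.94 in mouse 544 (-2.81 ± 0.81 (SD, n = 4), limma adjusted p = 0.00737). Without mouse 178, 7 genes of the group were called lower and 0 higher. In the primary spermatocytes of mice 178, 648 and 544 *Fos* stood at 0.844, 7.21 and 3.17 RPKM. The exception, *Klf4*, which is known to be expressed in round spermatids, went from 31.4 to 61.2 in mouse 178, 49.2 to 66.8 in mouse 648, 24.2 to 65.5 in mouse 286 and 60.4 to 103 in mouse 544 without overlap between fractions (0.90 ± 0.42 (SD, n = 4), limma adjusted p = 0.0372).

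Of 51 genes of the histone clusters, whose messenger RNAs mostly lack a poly(A) tail, 0 were higher and 18 lower (median -1.32). The share lower was 35.3%, against 13.3% of all genes. *Hist1h4c* went from 42.7 to 2.92 in mouse 178, 10.9 to 5.6 in mouse 648, 41.3 to 26.5 in mouse 286 and 188 to 6.34 in mouse 544 (-2.57 ± 2.10 (SD, n = 4), limma adjusted p = 0.0236). Without mice 178, 648, 286 and 544 in turn, 0, 10, 16 and 6 histone genes were called lower. Of 25 Lsm and Snrp genes of splicing and RNA decay, 6 were lower and 0 higher, among them *Lsm7* (-2.57 ± 1.04 (SD, n = 4), limma adjusted p = 0.0101), median centring gave 4 lower and 1 higher, and without mouse 178 0 were called. Their share lower was 24.0%, against 13.3% of all genes. Of 29 genes named Spata, for spermatogenesis associated, 14 were higher and 1 lower, and without mouse 178 0 were called. The share higher was 48.3%, against 6.0% of all genes. *Spata3* went from 245 to 1326 in mouse 178, 12.3 to 31.5 in mouse 648, 11.9 to 18.1 in mouse 286 and 579.8 to 1826 in mouse 544 (1.51 ± 0.76 (SD, n = 4), limma adjusted p = 0.0134), and *Spata31* went from 22.4 to 87.0 in mouse 178, 13.9 to 36.2 in mouse 648, 9.47 to 34.4 in mouse 286 and 31.2 to 66.5 in mouse 544 (1.57 ± 0.40 (SD, n = 4), limma adjusted p = 0.0103).

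The spermatogonia library of mouse 544 held 1402 RPKM of *Prm1* and 3272 RPKM of *Tnp1*, above the 0.094 to 92.9 RPKM of *Prm1* in the spermatogonia libraries of mice 648, 286 and 178 and above its own spermatid library for both genes. Apart from these values, that library entered no result given in the text.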
